A study of Mus musculus with 4 samples.

Results

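The nuclear genes that encode the subunits of mitochondrial complex I were compared between satellite cells of young and aged mice. Members were the genes on the array whose symbol in the platform annotation is Ndufa, Ndufb, Ndufc, Ndufs or Ndufv followed by a number, or Ndufab1, taken from probe sets that map to exactly 1 gene. There were 35 such genes of 18193 tested, measured by 77 probe sets. Satellite cells are stem cells that lie beside muscle fibres and repair them. They came from the hindlimb of C57BL/6J mice, and the labels list no allele or agent for either group. The young group was 3 to 6 months old and the aged group 20 to 25 months old. Each age had 2 independent pools of several mice (6 to 8 per pool in the sample text, 4 to 8 in the series text), sorted for the surface proteoglycan syndecan-4, with 1 array per pool. Pooling averages the mice, so the spread seen is that between pools. The sex of the mice is not given in the sources used here.

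Complex I is the first and largest enzyme of the respiratory chain. Its peripheral arm, in the matrix, takes electrons from NADH in the N module and passes them along iron-sulphur clusters to ubiquinone in the Q module, and its membrane arm pumps protons. A small catalytic core is shared with bacteria, part of it encoded in the mitochondrial DNA, and the accessory subunits around it are needed for its assembly and stability. Muscle fibres, which rely on oxidative phosphorylation, hold much of it, whereas quiescent satellite cells are known for few mitochondria.

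Complex I transcripts were lower in aged cells almost throughout. Of the 35 genes, 34 had a lower mean in aged than in young pools, where 46.2% of all genes did, and 27 were at least 2-fold lower. The median difference, aged minus young, was -1.40 on the log2 scale (2.65-fold lower), beside 0.05 over all genes tested. Values are log2 units relative to the median of each probe set over the 4 arrays, so they show differences and no absolute level, and the fold changes assume base 2. In 29 members, or 82.9%, both aged pools lay below both young pools, which held for 16.9% of all genes. In 0 members both aged pools lay above both young pools, against 19.9% of all genes, and the other 6 members overlapped. With limma, 0 members passed a Benjamini-Hochberg adjusted p of 0.05 (lowest 0.150), and 0 of all genes did (percent called 0). With a variance trend in limma, 4 members passed (Ndufc1, Ndufb10, Ndufa5 and Ndufa3), among 221 genes in all. At an unadjusted p under 0.05 there were 25 members lower, 71.4%, and 0 higher, beside 6.19% and 2.85% of all genes. In these bulk pools, fewer cells of a type and less RNA per cell cannot be told apart.

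The pools of an age were not equally far apart. The mean over the 35 members was 0.72 in young 1 and 0.59 in young 2, against -0.61 in aged 1 and -0.98 in aged 2. Both young pools were therefore high and both aged pools low, with aged 2 the lowest. The members' median gap between pools was 0.35 for the young and 0.70 for the aged, where the same medians over all genes were 0.46 and 0.48. Taking 1 aged and 1 young pool at a time, the median difference lay between -1.64 and -1.30, and between 30 and 34 members were lower. Leaving out 1 pool left 1 array in an age and 1 residual degree of freedom in place of 2. Fewer than 25 members then met the unadjusted threshold in each fit, and such counts also reflect the lost precision. The median difference was -1.44 without young replicate 1, -1.57 without young replicate 2, -1.61 without aged replicate 1 and -1.32 without aged replicate 2. All 25 members that passed with every pool stayed lower in aged cells in the 4 such fits. Taking the most variable probe set of each gene lost 6 of the 25 (Ndufa1, Ndufa13, Ndufa4, Ndufb3, Ndufb6 and Ndufs3). All of these but Ndufb6 have 1 probe set, so their differences stayed the same and only the standard errors of the fit rose. A variance trend lost Ndufa9. When probe sets with the suffix _x_at or _s_at were left out, Ndufa12, Ndufab1 and Ndufb11 lost the call and Ndufa2 and Ndufa13 had no probe set left.

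**Figure D1:**
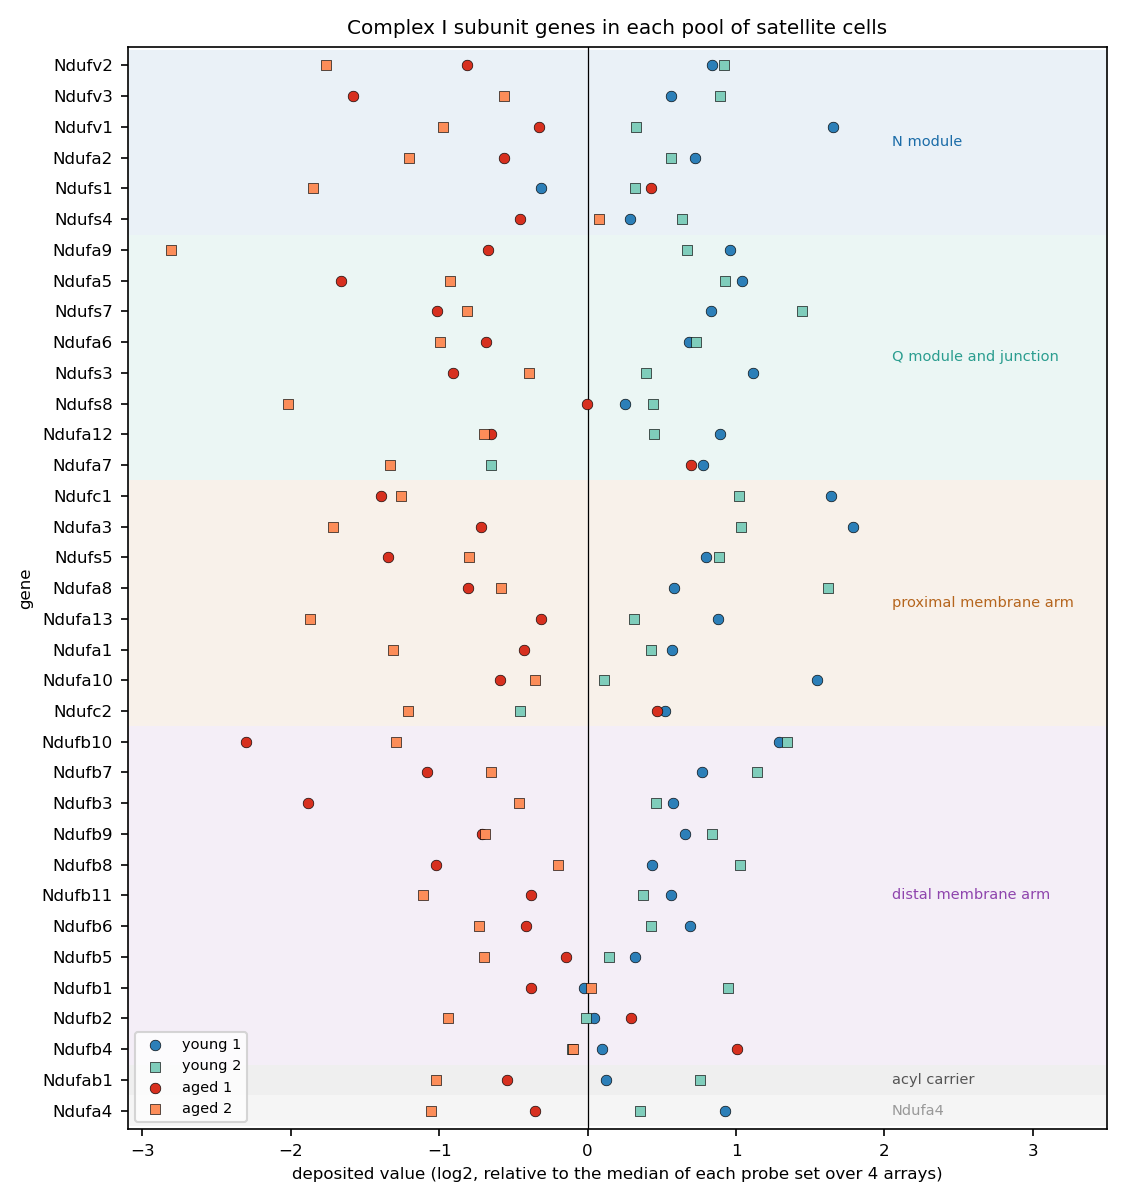
Value of each of the 35 complex I genes (rows, shaded by place in the enzyme) in each of the 4 pools, in log2 units relative to the median over the arrays. In 29 rows both aged pools (red and orange) lie to the left of both young pools (blue and green), and 6 rows overlap.

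Markers of mature muscle fibres, which a sort of satellite cells should remove, moved in the same direction. All 31 measured of 32 listed fibre markers were lower in aged cells. Of these, 27 (87.1%) were lower at an unadjusted p under 0.05, beside 6.19% of all genes. The median difference of the fibre markers was -2.61 (6.09-fold). Their mean was 1.28 in young 1, 1.13 in young 2, -1.29 in aged 1 and -1.42 in aged 2, so they parted the ages in the same order as complex I and by more. Ryr1, the calcium release channel, differed by -4.45 ± 0.42 (SE of the fit, n = 2 pools per age, as throughout), the thin filament protein Neb by -4.03 ± 0.41 and the Z-disc protein Myoz2 by -3.35 ± 0.36. Satellite cell markers had a median of 0.00, with 8 of 15 higher in aged cells and 7 lower, the lowest being Cd34 (-0.29 ± 0.43). The 3 with the smallest p were all higher. The lineage factor Pax7 differed by 2.31 ± 0.36 (adjusted p = 0.150 with limma), Myf5 by 2.56 ± 0.63 and Sdc4, the protein used for the sort, by 1.22 ± 0.53. Since values are centred, whether a marker is absent from a pool cannot be read from them. Median differences of the other lists were 0.82 for fibro-adipogenic progenitors, 0.91 for pericytes and smooth muscle and 0.65 for T cells. B and plasma cells had a median of 1.19 and Schwann cells one of 0.65. Genes higher in aged cells numbered 10 of 12, 11 of 12, 7 of 7, 4 of 4 and 3 of 4 measured, in that order. The medians were -0.43 for endothelial cells, -1.10 for macrophages and monocytes, -0.52 for neutrophils, -0.28 for erythroid cells and -0.12 for adipocytes. Genes lower in aged cells numbered 8 of 10, 8 of 10, 2 of 4, 2 of 3 and 4 of 5 measured, in that order. The part of these cell types in the complex I difference was not tested.

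**Figure D2:**
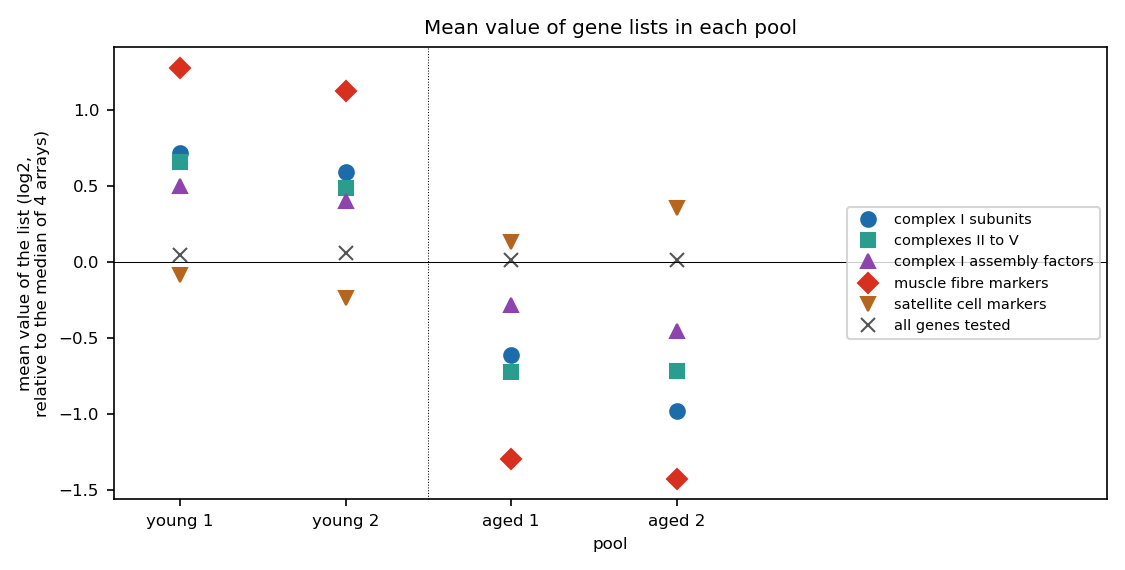
Mean value, in log2 units relative to the median over the arrays, of 5 gene lists and of all genes tested in each pool. Complex I subunits go from 0.72 and 0.59 in the young pools to -0.61 and -0.98 in the aged pools, and muscle fibre markers from 1.28 and 1.13 to -1.29 and -1.42.

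Xist, the noncoding RNA of X inactivation, also parted the ages, by 6.16 ± 0.44 (adjusted p = 0.0998 with limma). It stood at -3.48 and -2.67 in the young pools and at 3.21 and 2.97 in the aged pools. The Y-linked genes Eif2s3y, Kdm5d and Uty differed by -0.09 ± 0.44, 0.01 ± 0.49 and 0.52 ± 0.47. These 4 genes were picked after their values were seen. Both X-linked members were lower in aged cells, Ndufa1, a small membrane subunit, with a difference of -1.37 ± 0.44, and Ndufb11, of the distal membrane arm, with -1.21 ± 0.42. The other 33 members lie on autosomes. The part of sex in the complex I difference was not tested.

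The promoters of the members with the smallest p-values, and of the only member with a higher mean in aged cells, are shown. The difference of that last gene, Ndufb4, was within the spread between pools. Each run is 5′ to 3′ from 220 bases before to 30 bases after the start of the RefSeq gene (build GRCm38.p6). Capitals mark matches, on either strand, to any motif of 7 searched. The motifs were that of NRF1 (GCGCA, any base, then GCGC), the palindrome TGCGCA (which can overlap an NRF1 match), CCGGAAG (GABPA and other ETS factors), AAGGTCA (oestrogen-related receptors), AAGATGGC (YY1), GGGCGG (SP1) and TATAAA (the TATA box).
Ndufb10 (chr17:24724394-24724643, minus strand): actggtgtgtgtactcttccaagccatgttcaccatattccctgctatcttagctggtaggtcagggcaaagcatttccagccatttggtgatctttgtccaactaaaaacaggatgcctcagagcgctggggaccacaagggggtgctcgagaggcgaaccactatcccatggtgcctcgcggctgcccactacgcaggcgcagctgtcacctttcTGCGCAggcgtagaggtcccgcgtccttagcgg
Ndufc1 (chr3:51408926-51409175, minus strand): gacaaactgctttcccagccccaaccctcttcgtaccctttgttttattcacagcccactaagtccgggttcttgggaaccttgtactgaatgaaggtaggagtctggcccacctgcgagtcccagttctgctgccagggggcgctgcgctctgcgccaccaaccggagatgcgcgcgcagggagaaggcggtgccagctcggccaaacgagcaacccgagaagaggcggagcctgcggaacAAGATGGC
Ndufa5 (chr6:24527661-24527910, minus strand): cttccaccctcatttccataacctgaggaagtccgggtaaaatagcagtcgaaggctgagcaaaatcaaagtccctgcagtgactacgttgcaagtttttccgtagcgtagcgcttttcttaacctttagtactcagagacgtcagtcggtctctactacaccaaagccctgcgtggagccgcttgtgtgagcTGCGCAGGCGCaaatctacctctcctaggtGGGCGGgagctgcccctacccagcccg
Ndufb4 (chr16:37654339-37654588, minus strand): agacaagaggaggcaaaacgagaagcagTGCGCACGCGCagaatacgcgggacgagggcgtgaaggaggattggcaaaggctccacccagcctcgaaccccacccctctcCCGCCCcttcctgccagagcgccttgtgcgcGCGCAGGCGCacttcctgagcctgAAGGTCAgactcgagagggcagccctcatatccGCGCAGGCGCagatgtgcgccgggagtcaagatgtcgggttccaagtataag
Ndufb10 held 1 TGCGCA, Ndufc1 held 1 YY1 match after its start, and Ndufa5 held 1 NRF1 match that overlaps a TGCGCA and 1 SP1 match. Ndufb4, whose single probe set was not lower in aged cells, held 3 NRF1 matches, 1 of them overlapping a TGCGCA, 1 match for the oestrogen-related receptors and 1 for SP1.

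Over the whole family, 32 of 35 members had at least 1 promoter window of 300 bases. There were 34 windows in all, since 2 members had 2 windows, and each window was counted on its own. The YY1 letters were in 17.6% of them, against 2.75% of all 32851 windows in the RefSeq table, and the NRF1 letters in 17.6% against 4.60%. TGCGCA was in 29.4% against 7.76% and the SP1 letters in 47.1% against 35.7%. For the ETS letters the shares were 11.8% and 8.86%, for the oestrogen-related receptors 8.82% and 4.72%, and for the TATA box 14.7% and 13.6%. The member windows also had more G and C, with a median of 59.3% against 52.7%, and the part of base composition in these shares was not tested. Of the windows, 24 belong to members at an unadjusted p under 0.05 and 10 to the rest. The SP1 letters were in 14 and 2 of these, TGCGCA in 9 and 1, the NRF1 letters in 5 and 1, and the YY1 letters in 5 and 1. The ETS letters were in 3 and 1, the TATA box in 3 and 2, and the letters of the oestrogen-related receptors in 1 and 2. These are matches of letters and not binding sites.

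**Figure D3:**
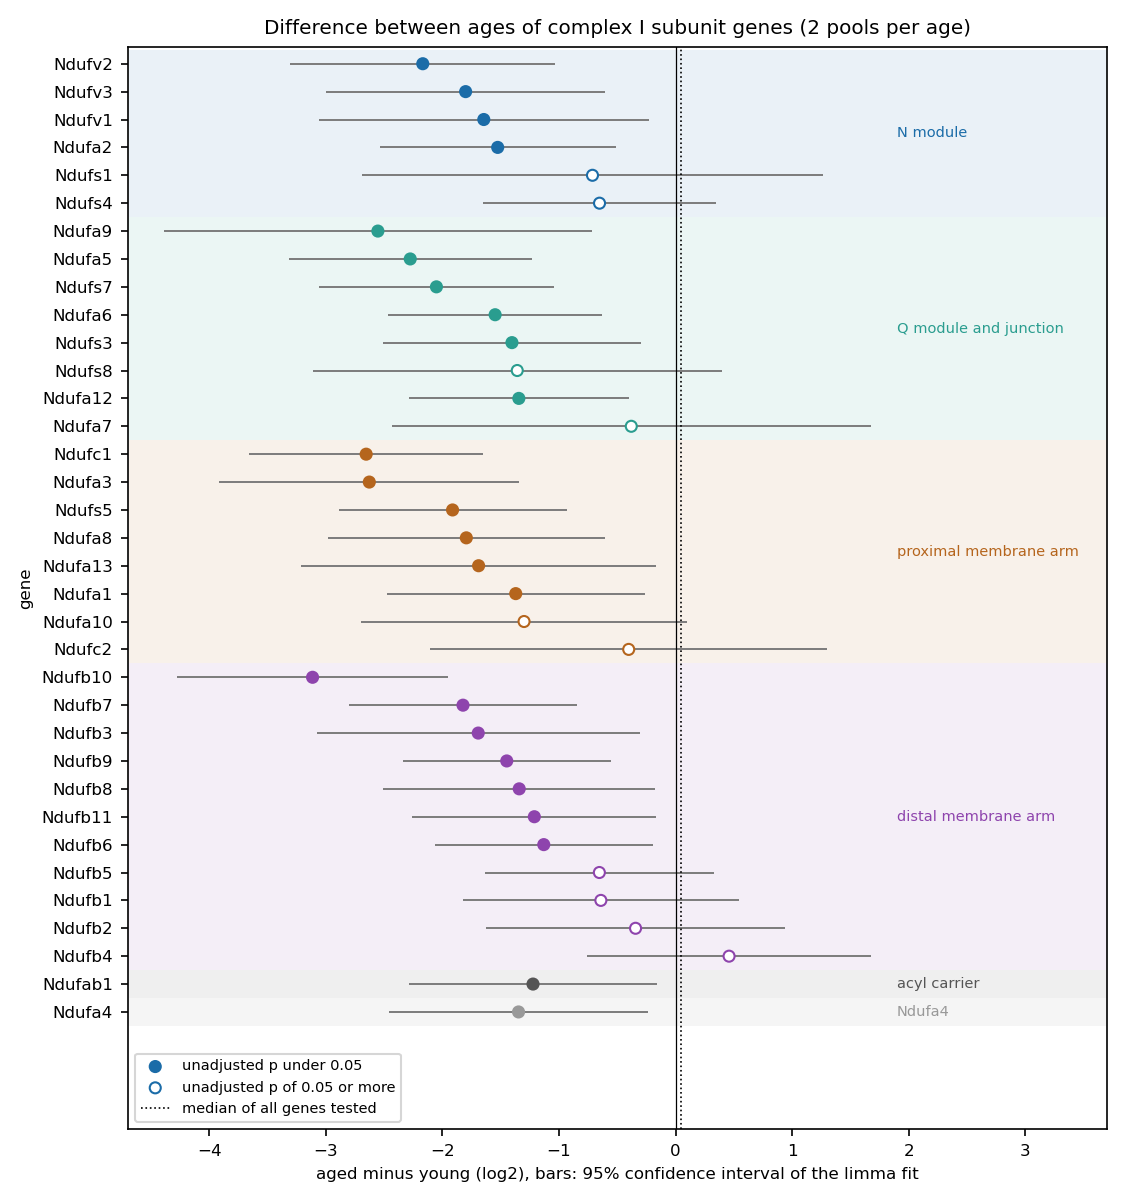
Aged minus young difference of each complex I gene on the log2 scale, with its 95% confidence interval from the limma fit (n = 2 pools per age), by place in the enzyme. Filled points have an unadjusted p under 0.05 (25 genes, all lower). Over all genes, 6.19% were lower at that threshold. Ndufb4 alone lies above 0, at 0.46.

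By place in the enzyme, every group had a negative median. The medians were -1.59 for the N module (6 genes measured of 7 listed), -1.48 for the Q module with the junction of the arms (8 of 9), -1.74 for the proximal membrane arm (8 of 9) and -1.21 for the distal membrane arm (11 of 11). Members lower at an unadjusted p under 0.05 numbered 4, 6, 6 and 7 in that order. The 6 measured core subunits had a median of -1.52 and the 28 accessory subunits, without Ndufa4, one of -1.41. Ranges within each group were wider than these gaps, and no test between groups was made. Ndufs6 and Ndufa11 were not analysed here as single genes.

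In the N module, where NADH is oxidised, the core subunits Ndufv1 and Ndufv2 were both lower. Ndufv1, which binds the flavin that takes electrons from NADH, stood at 1.66 and 0.33 in the young pools and at -0.33 and -0.98 in the aged pools. The ages did not overlap, but young 1 was far above young 2. Its difference was -1.64 ± 0.57 (unadjusted p = 0.0299, adjusted p = 0.462 with limma), and -0.98 without young replicate 1. Ndufv2, which carries an iron-sulphur cluster beside it, stood at 0.84 and 0.92 in the young pools and at -0.81 and -1.77 in the aged pools, a difference of -2.17 ± 0.46 (adjusted p = 0.213 with limma). The third core subunit, Ndufs1, holds several of the iron-sulphur clusters. It stood at -0.32 and 0.32 in the young pools and at 0.43 and -1.85 in the aged pools, so aged 1 was the highest pool and aged 2 the lowest. Its difference of -0.71 ± 0.79 was within the spread, at 0.43 without aged replicate 2 and -1.85 without aged replicate 1.

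Of the accessory subunits of the N module, Ndufv3 stood at 0.56 and 0.90 in the young pools and at -1.58 and -0.56 in the aged pools (difference -1.80 ± 0.48). Ndufa2, which has a thioredoxin-like fold, stood at 0.73 and 0.56 against -0.56 and -1.20 (-1.53 ± 0.41). Both had all aged values below all young ones. Ndufs4, whose loss in mice causes a fatal brain disease, had a difference of -0.65 ± 0.40 that did not pass and was -0.39 without aged replicate 1. Its 4 probe sets differed by -1.65, -1.25, -0.52 and 0.81.

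The Q module, where electrons reach ubiquinone, held some of the clearest differences. Ndufs7, a core subunit that carries the last iron-sulphur cluster of the chain, stood at 0.83 and 1.44 in the young pools and at -1.02 and -0.81 in the aged pools. It was 4.14-fold lower (-2.05 ± 0.40, adjusted p = 0.196 with limma). The core subunit Ndufs3, which carries no cofactor, stood at 1.11 and 0.39 against -0.91 and -0.39, a difference of -1.40 ± 0.44. Ndufs8, the core subunit next to Ndufs7 in the electron path, stood at 0.25 and 0.44 against -0.01 and -2.02. Aged 2 carried nearly all of its difference of -1.36 ± 0.70, which did not pass. It was -0.35 when aged replicate 2 was left out and -2.36 when aged replicate 1 was. The 6 probe sets of Ndufs8 ran from -3.44 to -0.18, and without those ending in _x_at its difference was -0.51 ± 0.60.

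Among its accessory subunits, Ndufa5 stood at 1.04 and 0.93 in the young pools and at -1.66 and -0.93 in the aged pools, 4.84-fold lower (-2.28 ± 0.42, adjusted p = 0.173 with limma). Ndufa6, a protein of the LYR family that binds the acyl carrier protein, had the smallest standard error in the Q module. Its young pools were at 0.68 and 0.73 and its aged pools at -0.68 and -0.997 (-1.55 ± 0.37). Ndufa9, which holds a bound NADPH at the junction of the arms, differed by -2.55 ± 0.74, and by -1.49 without aged replicate 2, the pool in which it stood at -2.81. Ndufa12, which replaces the assembly factor Ndufaf2 late in assembly, differed by -1.34 ± 0.38. That value rests on its 3 probe sets ending in _x_at or _s_at, since the other 1 differed by -0.062 with overlapping ages (unadjusted p = 0.933 with limma). Ndufa7 did not pass and is described with the genes that overlapped.

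In the proximal membrane arm, Ndufc1, a small subunit that spans the membrane, stood at 1.64 and 1.02 in the young pools and at -1.39 and -1.26 in the aged pools. That was a 6.29-fold difference (-2.65 ± 0.40, adjusted p = 0.150 with limma). Ndufa3 stood at 1.79 and 1.03 against -0.72 and -1.71, 6.18-fold lower (-2.63 ± 0.52, adjusted p = 0.196 with limma). Its 3 probe sets were split, with differences of -4.69, -3.96 and 0.76. Ndufs5, on the side of the intermembrane space, stood at 0.80 and 0.89 against -1.35 and -0.80 (-1.91 ± 0.39). Ndufa8, Ndufa13 and Ndufa1 also met the unadjusted threshold, with differences of -1.79, -1.69 and -1.37. Ndufa13, also known as GRIM-19, was at -0.91 without aged replicate 2. Ndufa10 (-1.30 ± 0.56) parted the ages but did not pass, with young 1 at 1.54 and young 2 at 0.11, and was at -0.58 without young replicate 1 and at -2.01 without young replicate 2.

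In the distal membrane arm lay both ends of the family. Ndufb10, a subunit with paired cysteine motifs on the intermembrane side, stood at 1.29 and 1.34 in the young pools and at -2.30 and -1.29 in the aged pools. It was the lowest of the 35 members, 8.65-fold lower (-3.11 ± 0.47, adjusted p = 0.150 with limma), with a 95% interval from -4.28 to -1.95. Ndufb7, of the same cysteine-motif class, stood at 0.77 and 1.14 against -1.08 and -0.65 (-1.82 ± 0.39). Ndufb9, a second LYR protein, stood at 0.65 and 0.84 against -0.71 and -0.69 (-1.45 ± 0.36), the smallest standard error in the family. Ndufb3, Ndufb8, Ndufb11 and Ndufb6 met the unadjusted threshold with differences of -1.69, -1.34, -1.21 and -1.13, and Ndufb3 was at -0.98 without aged replicate 1. Ndufb5 (-0.65 ± 0.39) parted the ages without passing, and was at -0.38 without aged replicate 2.

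Ndufab1, the mitochondrial acyl carrier protein, sits in both arms and also serves fatty acid synthesis in the matrix. It stood at 0.12 and 0.76 in the young pools and at -0.54 and -1.02 in the aged pools (-1.22 ± 0.43). It no longer met the unadjusted threshold with the replicate number as a block, or without its probe set ending in _s_at (-0.99 ± 0.49). Its 5 probe sets ran from -2.28 to 0.07. Ndufa4 carries a complex I name but is now placed with cytochrome oxidase, complex IV. It stood at 0.93 and 0.36 against -0.36 and -1.05 (-1.35 ± 0.45), and without it the median of the family was -1.43.

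Only 6 members did not part the ages, and in 4 of them (Ndufa7, Ndufc2, Ndufb2 and Ndufs1) aged 2 was the lowest pool while aged 1 lay among or above the young pools. Ndufa7, a Q module accessory subunit, stood at 0.78 and -0.65 in the young pools and at 0.69 and -1.33 in the aged pools. Ndufc2, of the proximal membrane arm, stood at 0.52 and -0.46 against 0.47 and -1.21. In both, the pools numbered 1 were high and those numbered 2 low, whatever the age. Their differences of -0.38 ± 0.82 and -0.40 ± 0.68 turned to 0.63 and 0.44 without aged replicate 2, and to 0.34 and 0.09 without young replicate 1. Ndufb2 (-0.34 ± 0.51) was at 0.28 without aged replicate 2. Ndufb1 (-0.64 ± 0.47) had 1 high pool, young 2 at 0.95, and was at -0.16 without it. Ndufs1 is given above.

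Ndufb4 was the only member with a higher mean in aged cells. It stood at 0.10 and -0.11 in the young pools and at 1.00 and -0.10 in the aged pools, so aged 1 alone was high. The difference of 0.46 ± 0.49 (unadjusted p = 0.386, 95% interval from -0.76 to 1.68) was within the spread and was -0.091 without aged replicate 1. It rests on 1 probe set. Another 2 probe sets of Ndufb4, shared with its copies Ndufb4b and Ndufb4c and therefore not used, differed by -0.65 and -1.71.

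**Figure D4:**
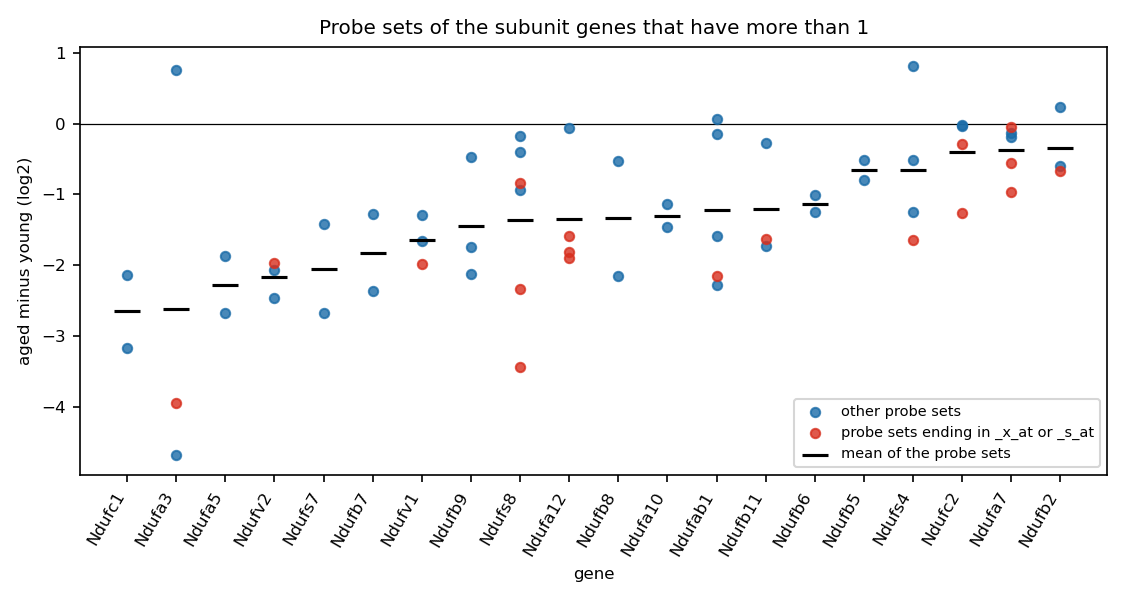
Aged minus young difference (log2) of every probe set of the 20 members that have more than 1, with the mean of each gene as a black bar and probe sets ending in _x_at or _s_at, which can match several transcripts, in red. Probe sets of Ndufa3, Ndufab1, Ndufs4 and Ndufb2 lie on both sides of 0.

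At the level of probe sets, 72 of 77 were lower in aged cells, with a median of -1.40 and a range from -4.69 to 0.81. In 52 of them both aged pools lay below both young pools. The shares over all probe sets were not computed. Over all genes, 46.2% were lower and 16.9% had both aged pools below both young pools. Of the 20 members with more than 1 probe set, 4 had probe sets on both sides of 0: Ndufa3, Ndufab1, Ndufs4 and Ndufb2, the last with 0.24 beside -0.60 and -0.67. The 15 members with a single probe set had a median of -1.55 and the other 20 one of -1.34. A further 10 probe sets name a member together with a copy or neighbour and were not used. Of these, 9 were lower, and in 5 both aged pools lay below both young pools, again without a share over all probe sets. The probe set shared by Ndufs6 and Ndufs6b differed by -1.83, and those shared by Ndufa11 and Ndufa11b by -1.98 and -0.082.

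Assembly factors help to build complex I without being part of it. Of 17 measured assembly factors, 13 had a negative difference and 4 a positive one. Their median was -0.89. At an unadjusted p under 0.05, 4 (23.5%) were lower and 0 higher, beside 6.19% and 2.85% of all genes. Ndufaf5, which hydroxylates Ndufs7, stood at 1.88 and 1.01 in the young pools and at -2.50 and -1.01 in the aged pools, 9.19-fold lower (-3.20 ± 0.63, adjusted p = 0.196 with limma). Nubpl, which delivers iron-sulphur clusters to complex I, stood at 1.70 and 0.88 against -0.93 and -0.88 (-2.20 ± 0.43). Ndufaf4, which acts in building the Q module, stood at 0.55 and 1.01 against -0.56 and -1.01 (-1.56 ± 0.40). Ecsit, which acts in building the membrane arm, differed by -1.78 ± 0.53. Both aged pools lay below both young pools in 8 of the 17 (47.1%), these 4 included, against 16.9% of all genes. The assembly factors Ndufaf7 (0.82 ± 0.63), Tmem126b (0.44 ± 0.94), Acad9 (0.38 ± 0.50) and Tmem186 (0.05 ± 0.36) were not lower.

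Of the 7 mitochondrially encoded subunits, ND5 alone had a probe set of 1 gene, and it stood at -0.17 and -0.02 in the young pools and at 0.12 and 0.02 in the aged pools. Both aged pools lay above both young pools, as in 19.9% of all genes, but the difference of 0.16 ± 0.36 was smaller than its standard error. Ndufa4l2, a relative of Ndufa4, differed by -0.69 ± 0.45 and did not pass.

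**Figure D5:**
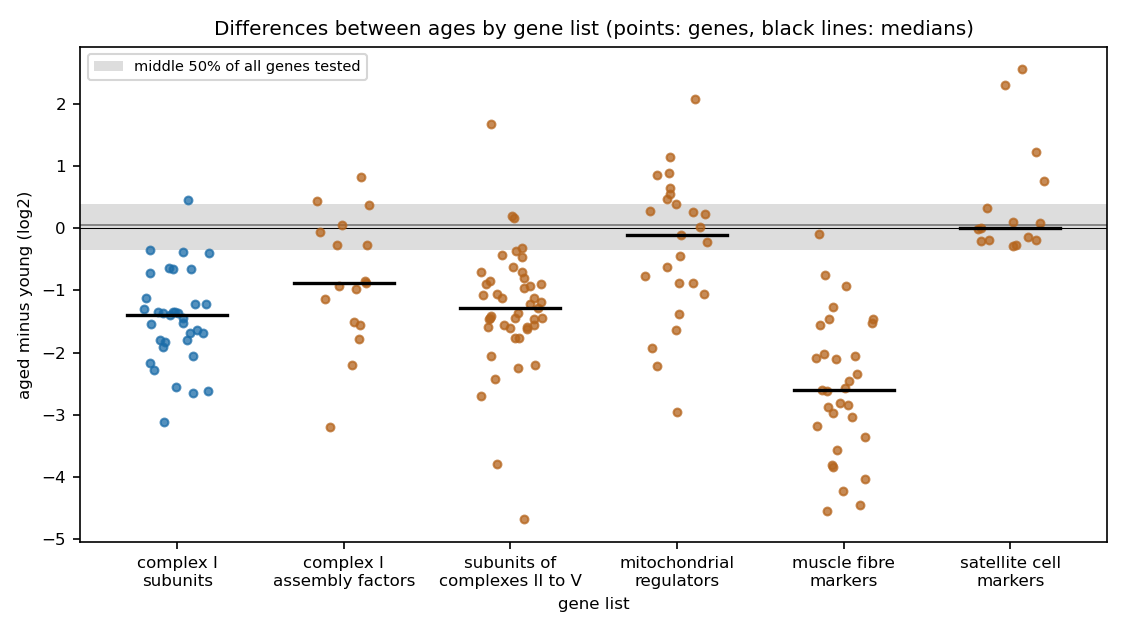
Aged minus young difference (log2) of each gene in 6 lists, with the median as a black line and the middle 50% of all genes tested as a grey band. The complex I subunits have a median of -1.40, their assembly factors -0.89, complexes II to V -1.28 and the fibre markers -2.61.

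The other complexes of the chain, II to V, were mostly lower in aged cells too. Of 45 measured nuclear-encoded genes, 42 were lower, with a median of -1.28, and 24 (53.3%) were lower at an unadjusted p under 0.05. Over all genes, 46.2% were lower, and 6.19% at that threshold. Cox8b and Cox7a1, cytochrome oxidase subunits of the muscle type, differed by -4.68 ± 0.44 and -3.80 ± 0.39, and the succinate dehydrogenase subunit Sdhb by -2.20 ± 0.35.

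Regulators of mitochondrial biogenesis moved both ways, with 13 of 25 lower and a median of -0.12. At an unadjusted p under 0.05 there were 5 of 25 lower (20.0%) and 1 of 25 higher, beside 6.19% and 2.85% of all genes. The coactivator Ppargc1a stood at 1.44 and 1.27 in the young pools and at -0.92 and -0.80 in the aged pools (-2.21 ± 0.36, adjusted p = 0.150 with limma). Prkaa2, a catalytic subunit of the energy sensor AMPK, differed by -2.96 ± 0.48 and the mitochondrial transcription factor Tfb2m by -1.93 ± 0.40. Twnk, the mitochondrial DNA helicase, differed by -1.63 ± 0.36, and the deacetylase Sirt1 was the gene that was higher, by 2.07 ± 0.69. Of the factors whose letters were searched in the promoters, the differences were 0.38 ± 0.42 (Nrf1), 1.14 ± 0.52 (Gabpa), -0.14 ± 0.39 (Sp1) and -0.12 ± 0.37 (Yy1). The oestrogen-related receptors stood at 0.28 ± 0.57 (Esrra), 0.55 ± 0.53 (Esrrb) and -1.38 ± 0.37 (Esrrg). Of these 7 genes, Esrrg alone met the unadjusted threshold.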

How the data were processed

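RNA of each pool went through 2 rounds of linear T7 amplification and biotin labelling, per the labels' protocols. The authors deposited 1 table of 45101 Affymetrix probe sets, whose values were read as log2. They are centred so that each probe set has a median of 0, and the middle 2 of the 4 values mirror each other around 0 wherever a gene has 1 probe set. For log base, background correction, probe summary and normalization, the method is not given in the sources used here. That higher means more RNA is assumed. Gene symbols came from the platform annotation (34945 with 1 symbol, 932 with several, 9160 with none, 64 controls), and a gene's value is the mean of its probe sets.

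The ages were fitted in R 4.3.3 by limma 3.58.1 (two-sided, aged minus young, eBayes without trend) over 18193 genes, with Benjamini-Hochberg adjustment and 2 residual and 3.56 prior degrees of freedom. The ± is the standard error of that fit. Lists are described by counts and medians and not tested. An exact permutation test of 2 pools against 2 cannot give a two-sided p below 0.333. Figures were drawn with matplotlib 3.10.9.

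The members and lists were chosen with earlier results of these data known. Members described in full are the core subunits, the 3 with the smallest p in each place in the enzyme, the extremes, those with a positive difference and those with probe sets of both signs, and in other lists the 3 with the smallest p. Other genes were added where a sentence says what they show or counts them, after their values were seen. Alternatives were quantile normalization, median centring, another choice of probe sets, other variance models, the replicate number as a block, updated symbols and leaving out each pool.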

Additional observations from a re-analysis of the deposited data

How the results depend on the processing

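The precision is limited by 2 pools per age, and the centred values show no signal over background, so dim probe sets could not be filtered out. The median difference of the 35 members kept its sign and moved by less than the median standard error of a member in every alternative, between -1.73 (probe set with the largest SD) and -1.32 (without 1 pool). Leaving out 1 pool gave medians from -1.61 to -1.32, 14 to 22 members lower at an unadjusted p under 0.05 and 0 at an adjusted p under 0.05, in a fit with fewer arrays. With a variance trend on the mean value, limma called 4 members at an adjusted p under 0.05 (Ndufb10, Ndufc1, Ndufa5 and Ndufa3) among 221 genes in all, and the cause was not tested. The mean of a centred value is no expression level. In the alternatives that keep all pools, the count of members lower at an unadjusted p under 0.05 ran from 19 (largest SD) to 25. Between 5.91% and 6.70% of all genes were lower at that threshold in these alternatives.

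Taking for each gene its most variable probe set turned Ndufs4 to 0.81. Without young replicate 1, Ndufa7 stood at 0.34 and Ndufc2 at 0.09. Without aged replicate 2, Ndufa7 stood at 0.63, Ndufc2 at 0.44, Ndufs1 at 0.43 and Ndufb2 at 0.28. Without aged replicate 1, Ndufb4 stood at -0.091. Leaving out 1 pool gave ranges from -1.39 to 0.63 for Ndufa7, from -1.24 to 0.44 for Ndufc2, from -1.85 to 0.43 for Ndufs1, from -0.96 to 0.28 for Ndufb2 and from -0.091 to 1.01 for Ndufb4. Quantile normalization, median centring, robust eBayes and updated symbols left all 35 members on the same side of 0 and of the unadjusted threshold.

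The replicate numbers give 2 pairs, and nothing says that a number marks a shared batch. Over all genes the deviations of same-numbered pools from their age means correlated at 0.138, and over the members at 0.292. With the replicate number as a block, 24 members were lower at an unadjusted p under 0.05, beside 6.70% of all genes. In that fit 0 members passed the adjusted threshold (lowest 0.303) and the median was -1.40.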
